A study of Canis lupus familiaris with 18 samples.

Results

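The transforming growth factor beta (TGF-beta) pathway was examined at the level of RNA in high grade oligodendroglioma (HGO) of dogs, a malignant brain tumor that carries markers of the oligodendrocyte lineage. The gene set was the TGF-beta ligands TGFB1, TGFB2 and TGFB3, the receptors TGFBR1, TGFBR2 and TGFBR3, and the intracellular mediators SMAD2, SMAD3 and SMAD7, picked by symbol from the count table. Of these 9 genes, 8 had a row among the 29993 genes listed, and all 8 passed the filter on low counts that left 16495 genes for testing. No row carried the symbol TGFB1, which is not analysed here. RNASeq libraries came from prosencephalic HGO tissue of pet dogs, labelled as 18 dogs, of which 11 were French bulldogs and, as the group to compare them with, 4 boxers and 3 Boston terriers. All tumors had been removed by surgery before any treatment in a clinical trial, and all had been fixed in formalin and embedded in paraffin. Tumors of all 3 breeds thus shared the labelled diagnosis, the fixation and the absence of trial treatment. Besides breed, the dogs varied in age, sex and brain lobe according to the study's description, with French bulldogs younger on average. None of these was a term in the tests, so their part in a difference between the groups was not tested. There was no normal brain and no other tumor type for comparison. The comparison dogs are named here by the numbers in their labels, which are boxers 1, 3, 4 and 5 and Boston terriers 2, 6 and 7.

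TGF-beta ligands are secreted in a latent form and are freed outside the cell by integrins and proteases. The active ligand binds the type II receptor TGFBR2, which recruits and phosphorylates the type I receptor TGFBR1, while TGFBR3 (betaglycan) presents ligand, TGFB2 in particular, to the signaling pair. TGFBR1 then phosphorylates SMAD2 and SMAD3, which enter the nucleus with SMAD4 and switch genes on or off, among them SMAD7, an inhibitor that blocks the type I receptor and so closes a feedback loop. In the brain the ligands act on glia, microglia and the vessel wall, and in gliomas the pathway is known for its roles in invasion, immune suppression and vessel growth.

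Total counts on genes ranged from 8.21 to 13.2 M per library, and 3 counts, the smallest level taken as detectable, corresponded to 0.228 to 0.365 CPM, which are counts scaled to a library of fixed size. The lowest count of any TGF-beta gene was 23, for TGFB3 in French bulldog 6, so all 8 genes were above that floor in all libraries. French bulldog 6 stood apart. Its library held 0 counts of OLIG2 and 2 of SOX10, which define the oligodendrocyte lineage, where the other 17 libraries held 1137 to 3371 and 1986 to 4972. It also held 27819 counts of the macrophage scavenger receptor CD163, against 22 to 521 elsewhere. These 2 lineage markers were thus absent or nearly so from a library labelled as HGO, a diagnosis that the study made from stained sections. PDGFRA, another marker of that lineage, had 406 to 48876 counts over all libraries. The summed lineage markers were at 43.4 CPM in French bulldog 6, against 959.4 to 6784 in the other 17 libraries. This library was kept in the tests under its label and left out in an alternative. French bulldogs 2 and 8 carry the same case number in their library names, and the study lists the same age, sex and tumor lobe for both, so they may be 2 samples of 1 dog. Their counts differed by more than sampling noise (chi-square of 9.41 per degree of freedom) but by less than those of the other 75 pairs of libraries within a group, which gave 30.3 to 326. More than sampling noise would also be seen between separate pieces of 1 tumor, so this does not settle how many dogs they are. The tests kept them apart, as labelled, and counts of French bulldogs below are counts of libraries, in which these 2 count separately. They were summed in an alternative and in the correlations. By the numbers in their library names the comparison dogs were split here into 2 series. These are 18 to 21 (boxers 1, 3 and 4 and Boston terrier 2) and 1 to 3 (boxer 5 and Boston terriers 6 and 7). The French bulldog libraries carry the numbers 1 to 8 and 10 to 12. The labels do not say which libraries were prepared or sequenced together, so batch and breed group cannot be told apart here.

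None of the 8 genes differed between French bulldogs and the comparison group at an adjusted p-value under 0.05, the threshold used throughout. This was so with edgeR's quasi-likelihood test, with DESeq2 and with limma-voom. Over all genes the edgeR test called 1 of 16495, or 0.00606%, and DESeq2 called 58 of 27192, or 0.213%. Before adjustment, SMAD7 (lower in French bulldogs) and TGFBR1 (higher in French bulldogs) had a p-value under 0.05, which is 2 of 8 genes, and 10.6% of all genes tested had such a p-value. The median log2 fold change was -0.07 over the 8 genes and 0.04 over all genes. The values of the groups overlapped for all 8 genes, and groups that did not overlap were seen for 9 genes of the whole table, or 0.0546%. Levels are given below as CPM after normalization by the trimmed mean of M values (TMM). Gene lengths were not used, so these levels compare dogs for the same gene and not genes with each other.

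**Figure D1:**
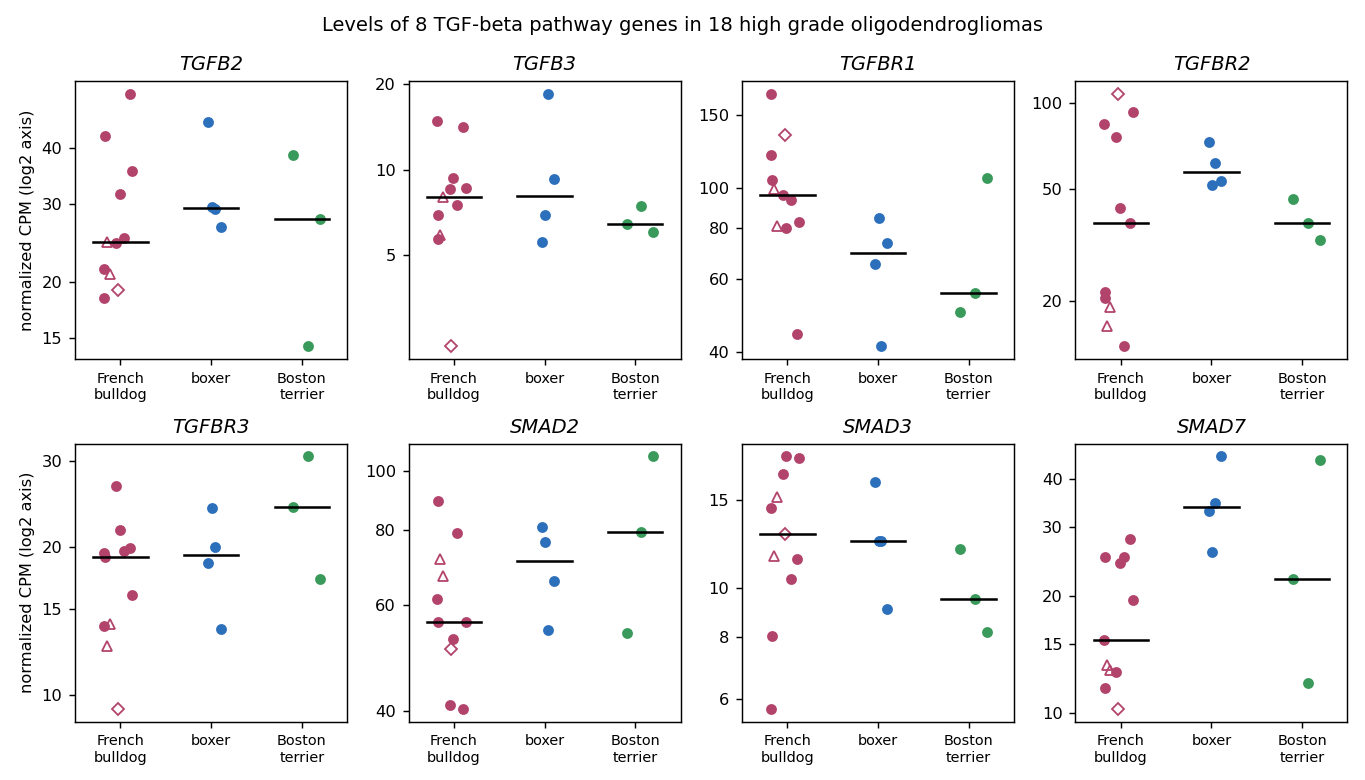
Normalized CPM (vertical, log2 axis) of TGFB2, TGFB3, TGFBR1, TGFBR2, TGFBR3, SMAD2, SMAD3 and SMAD7 in each of 11 French bulldogs, 4 boxers and 3 Boston terriers, with 1 point per library and a bar at the median. The open diamond is French bulldog 6 and open triangles are French bulldogs 2 and 8. SMAD7 points of all 11 French bulldogs lie below 28 CPM, and TGFBR2 points of French bulldogs spread from 13.9 to 108.3 CPM.

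Of the ligands, TGFB2, a form expressed by neurons and glia, was at 18.4 CPM in the lowest French bulldog (French bulldog 1), at 24.6 in the median and at 53.0 in the highest (French bulldog 9). It was at 29.5, 45.7, 29.2 and 26.6 CPM in boxers 1, 3, 4 and 5 and at 27.7, 38.6 and 14.3 CPM in Boston terriers 2, 6 and 7. The lowest value of all was thus a Boston terrier and the highest a French bulldog, and the breeds overlapped throughout. The mean of the 11 French bulldogs was 28.8 CPM with an SD of 10.9, and that of the 7 other dogs was 30.2 with an SD of 9.86. The log2 fold change was -0.07 with a standard error of 0.24 and a 95% interval of -0.57 to 0.44 (edgeR, adjusted p = 0.949).

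TGFB3, a ligand best known from palate and lung development, had the lowest counts of the set. It ranged in French bulldogs from 2.40 CPM (French bulldog 6) over a median of 8.03 to 14.9 (French bulldog 1). In the comparison group it was at 6.91, 5.57, 18.5 and 9.29 CPM in boxers 1, 3, 4 and 5 and at 6.02, 6.44 and 7.45 CPM in Boston terriers 2, 6 and 7. Boxer 4 was the highest and French bulldog 6 the lowest of the 18 libraries, and the other 16 lay between 5.57 and 14.9 CPM in all breeds. The log2 fold change was -0.04 with a standard error of 0.31 and an interval of -0.70 to 0.62 (edgeR, adjusted p = 0.980), and it was 0.09 without French bulldog 6 and 0.30 without boxer 4.

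TGFBR1, the type I receptor kinase, ranged in French bulldogs from 44.1 CPM (French bulldog 9) over a median of 96.1 to 169.0 (French bulldog 1). Boxers 1, 3, 4 and 5 were at 84.4, 65.3, 41.2 and 73.3 CPM and Boston terriers 2, 6 and 7 at 105.5, 49.8 and 55.6 CPM. In 10 of 11 French bulldogs the level was above the comparison median, and in 3 it was above every comparison dog, but French bulldog 9 was lower than all comparison dogs except boxer 4. Means were 100.3 CPM ± 32.6 (SD, n = 11) against 67.8 ± 22.02 (SD, n = 7). The log2 fold change was 0.56 with a standard error of 0.23 and an interval of 0.08 to 1.05, which is 1.48-fold (edgeR, p = 0.0245 before and 0.433 after adjustment over all genes). Over the whole table, 7.02% of genes had an unadjusted p-value under 0.05 and a level higher in French bulldogs.

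The TGFBR1 difference was 0.54 without French bulldog 6 (adjusted p = 0.417), and 0.53 when that dog was left out and French bulldogs 2 and 8 were summed (adjusted p = 0.577). Against the comparison dogs of the library numbers 18 to 21 alone the TGFBR1 difference was 0.44, and against those of the numbers 1 to 3 alone it was 0.76. All TGFBR1 values kept the same direction in the 30 alternatives run. DESeq2 gave a TGFBR1 difference of 0.59 with an adjusted p of 0.270.

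TGFBR2, the type II receptor that binds ligand first, varied most among the French bulldogs. It ranged there from 13.9 CPM (French bulldog 4) over a median of 37.9 to 108.3 (French bulldog 6). It was at 51.6, 73.4, 61.7 and 53.1 CPM in boxers 1, 3, 4 and 5 and at 32.9, 46.2 and 37.9 CPM in Boston terriers 2, 6 and 7. Of the 11 French bulldogs, 4 were above every comparison dog and 5 were below every comparison dog, which left 2 within their range. With French bulldogs 2 and 8 summed, 4 of 10 were below every comparison dog. The coefficient of variation was 72.4% over the French bulldogs, 72.0% without French bulldog 6, 68.6% with French bulldogs 2 and 8 summed, and 27.1% over the comparison dogs. The group means were 48.6 CPM ± 35.2 (SD, n = 11) and 51.0 ± 13.8 (SD, n = 7), with a log2 fold change of -0.07, a standard error of 0.41 and an interval of -0.92 to 0.79 (edgeR, adjusted p = 0.974). By limma-voom the TGFBR2 value was -0.38 (adjusted p = 0.730). The difference in spread between the groups was not tested.

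TGFBR3, the betaglycan co-receptor, ranged in French bulldogs from 9.37 CPM (French bulldog 6) over a median of 19.1 to 26.7 (French bulldog 11). Boxers 1, 3, 4 and 5 were at 24.04, 18.6, 20.02 and 13.6 CPM and Boston terriers 2, 6 and 7 at 17.2, 24.2 and 30.6 CPM. Boston terrier 7 was the highest of all libraries, and 2 French bulldogs were below every comparison dog. The log2 fold change was -0.28 with a standard error of 0.20 (edgeR, adjusted p = 0.624), and it was -0.18 without French bulldog 6.

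SMAD2, a receptor-activated SMAD, varied least. It ranged in French bulldogs from 40.3 CPM (French bulldog 9) over a median of 56.3 to 89.2 (French bulldog 5). Boxers 1, 3, 4 and 5 were at 76.4, 81.0, 54.6 and 65.7 CPM and Boston terriers 2, 6 and 7 at 105.9, 53.9 and 79.3 CPM. Although 4 French bulldogs were below every comparison dog, the other 7 were spread over the comparison range, and the log2 fold change of -0.29 with a standard error of 0.18 did not pass (edgeR, adjusted p = 0.563). The biological coefficient of variation of SMAD2, which edgeR estimates over all 18 libraries as the relative spread beyond counting noise, was 0.290, and 14.2% of all genes had a smaller one. That of TGFBR2 was 0.584, with 66.2% of genes below it, and the median was 0.363 over the 8 genes and 0.455 over all genes.

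SMAD3, the receptor-activated SMAD that binds DNA directly, ranged in French bulldogs from 5.74 CPM (French bulldog 5) over a median of 12.8 to 18.3 (French bulldog 7). The 4 boxers, in the same order, were at 12.4, 16.3, 12.4 and 9.08 CPM and Boston terriers 2, 6 and 7 at 8.19, 12.0 and 9.52 CPM. French bulldogs held both the highest 3 values and the lowest 2 of the series. The log2 fold change was 0.19 with a standard error of 0.22 (edgeR, adjusted p = 0.792).

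SMAD7, the inhibitory SMAD, had the smallest p-value of the set. It ranged in French bulldogs from 10.2 CPM (French bulldog 6) over a median of 15.4 to 27.9 (French bulldog 9). The boxers were at 25.9 (boxer 1), 32.9 (boxer 3), 34.5 (boxer 4) and 45.6 CPM (boxer 5) and Boston terriers 2, 6 and 7 at 44.7, 22.1 and 11.9 CPM. All 11 French bulldogs were below the comparison median of 32.9 CPM, and 3.43% of all genes had every French bulldog on the same side of that median. With French bulldogs 2 and 8 summed, all 10 were below the comparison median. Even so, Boston terrier 7 was lower than all French bulldogs except 6 and 10, so the groups overlapped. Means were 17.99 CPM ± 6.54 (SD, n = 11) against 31.1 ± 12.1 (SD, n = 7).

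The SMAD7 log2 fold change was -0.79 with a standard error of 0.26 and an interval of -1.34 to -0.23, which is 0.579 of the comparison level (edgeR, p = 0.00775 before and 0.433 after adjustment over all genes). Over the whole table, 3.55% of genes were lower in that breed with an unadjusted p-value under 0.05. The SMAD7 difference was -0.70 without French bulldog 6 (adjusted p = 0.394), -0.94 against the comparison dogs of library numbers 18 to 21 alone and -0.54 against those of numbers 1 to 3 alone. Leaving out each dog in turn moved it between -0.93 and -0.67. DESeq2 gave -0.77 with an adjusted p of 0.217.

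Markers of other cell types were read beside these values, since in bulk tissue fewer cells of a type and less RNA per cell cannot be told apart. No marker tested passed the threshold in any of the 8 cell types. Of the 8 macrophage and microglia markers, 5 had a higher mean in French bulldogs and 3 of these had an unadjusted p-value under 0.05, with 0 past the threshold after adjustment and a median log2 fold change of 1.41. That median came down to 0.07 without French bulldog 6, where 0 of the 8 had an unadjusted p-value under 0.05. Their summed level was 44.96 to 4443 CPM in French bulldogs, 44.96 to 243.5 with a median of 119.5 without French bulldog 6, and 57.8 to 145.2 with a median of 112.7 in the comparison group. Summed endothelial markers covered 125.7 to 800.7 CPM in the French bulldogs but 258.7 to 443.3 in the other 7 dogs, and 0 of the 5 measured had an unadjusted p-value under 0.05. Over the 16 samples of the correlations described below, which leave out French bulldog 6, SMAD7 had an r of -0.02 with the macrophage and microglia sum and of 0.08 with the endothelial sum. With French bulldog 6 these values were -0.37 and 0.15. For TGFBR1 the r was 0.09 and 0.02 without that dog and 0.34 and -0.05 with it. Without that dog TGFBR1 had an r of -0.57 with the neuronal sum and SMAD7 of 0.38 with the astrocyte sum (permutation test, adjusted p = 0.148 and 0.396). All 3 myelin markers measured had a higher mean in French bulldogs, with a median log2 fold change of 0.76, or 0.94 without French bulldog 6, and 0 had an unadjusted p-value under 0.05. The part of these cell types in the SMAD7 and TGFBR1 differences between the groups was not tested. The T cell markers, of which CD2 made up most when French bulldog 6 was left out, had a summed level of 0.771 to 96.2 CPM in French bulldogs. That level was 0.771 to 8.62 with a median of 3.25 without French bulldog 6, and 0.585 to 4.42 with a median of 1.66 in the other 7 dogs. CD2, the only one of the 5 T cell genes to pass the filter, had a log2 fold change of 2.03 (6.87 against 1.67 CPM, edgeR, p = 0.0165 before and 0.433 after adjustment). Without French bulldog 6 the CD2 value was 1.03 (3.42 against 1.67 CPM, edgeR, p = 0.0570 before and 0.475 after adjustment). The part of T cells in the TGFBR1 values was not tested.

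When the breeds were fitted apart, none of the 8 genes passed in any pair of breeds. Over all genes, 0 of 17934 (0%) passed between French bulldogs and boxers, 1 (0.00558%) between French bulldogs and Boston terriers, and 0 (0%) between boxers and Boston terriers. At an unadjusted p-value under 0.05 the pairs gave 8.26%, 3.84% and 2.12% of all genes and, among the 8, only SMAD7 between French bulldogs and boxers. The comparisons that involve French bulldogs share those 11 libraries and are not independent.

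SMAD7 means were ordered boxers (34.7 CPM ± 8.14, SD, n = 4), Boston terriers (26.2 ± 16.8, SD, n = 3) and French bulldogs (17.99). The SMAD7 log2 fold change of French bulldogs was -0.95 against boxers (standard error 0.31, edgeR, p = 0.00712, adjusted p = 0.592) and -0.54 against Boston terriers (0.35, adjusted p = 0.983). The latter was 0.08 without Boston terrier 2, the dog with the highest SMAD7 level of its breed, and -0.89 without Boston terrier 7, the lowest. Boxers against Boston terriers gave 0.40 with an interval of -0.50 to 1.304, and this was 1.03 without Boston terrier 2 (edgeR, p = 0.0367 before and 1 after adjustment) and 0.05 without Boston terrier 7. The place of Boston terriers above French bulldogs in this order thus depended on Boston terrier 2, and neither neighbouring pair in the order differed beyond its spread.

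TGFBR1 means were 100.3 CPM in French bulldogs, 70.3 ± 30.6 in Boston terriers (SD, n = 3) and 66.0 ± 18.3 in boxers (SD, n = 4). The TGFBR1 log2 fold change of French bulldogs was 0.60 against boxers (interval -0.01 to 1.22, edgeR, adjusted p = 0.609) and 0.51 against Boston terriers (interval -0.17 to 1.19, adjusted p = 0.983). Without Boston terrier 2, the highest of its breed, the latter was 0.92, and without Boston terrier 6 it was 0.31 (edgeR, adjusted p = 1.00 for both). Boxers and Boston terriers differed by -0.09 with an interval of -0.87 to 0.68, which became 0.32 without Boston terrier 2.

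TGFBR2 was ordered boxers (59.9 CPM ± 10.0), French bulldogs (48.6) and Boston terriers (39.0 ± 6.68). It was the only gene of the 8 whose boxers and Boston terriers did not overlap, with the lowest boxer at 51.6 and the highest Boston terrier at 46.2 CPM, and 7.26% of all genes had breeds that did not overlap in this way. The TGFBR2 log2 fold change of boxers over Boston terriers was 0.62 with an interval of -0.76 to 1.99 (edgeR, adjusted p = 1).

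The other genes had breed means within a narrower range. TGFBR3 and SMAD2 were lowest in French bulldogs (17.5 and 60.5 CPM), intermediate in boxers (19.1 and 69.4) and highest in Boston terriers (24.0 and 79.7). SMAD3 was ordered the other way, with 13.0, 12.5 and 9.89 CPM. Means of TGFB2 and TGFB3 were highest in boxers (32.7 and 10.1 CPM) and lowest in Boston terriers (26.8 and 6.64). None of these orders had neighbours that differed at an adjusted p-value under 0.05, and the intervals below show how wide a difference the data allow.

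**Figure D2:**
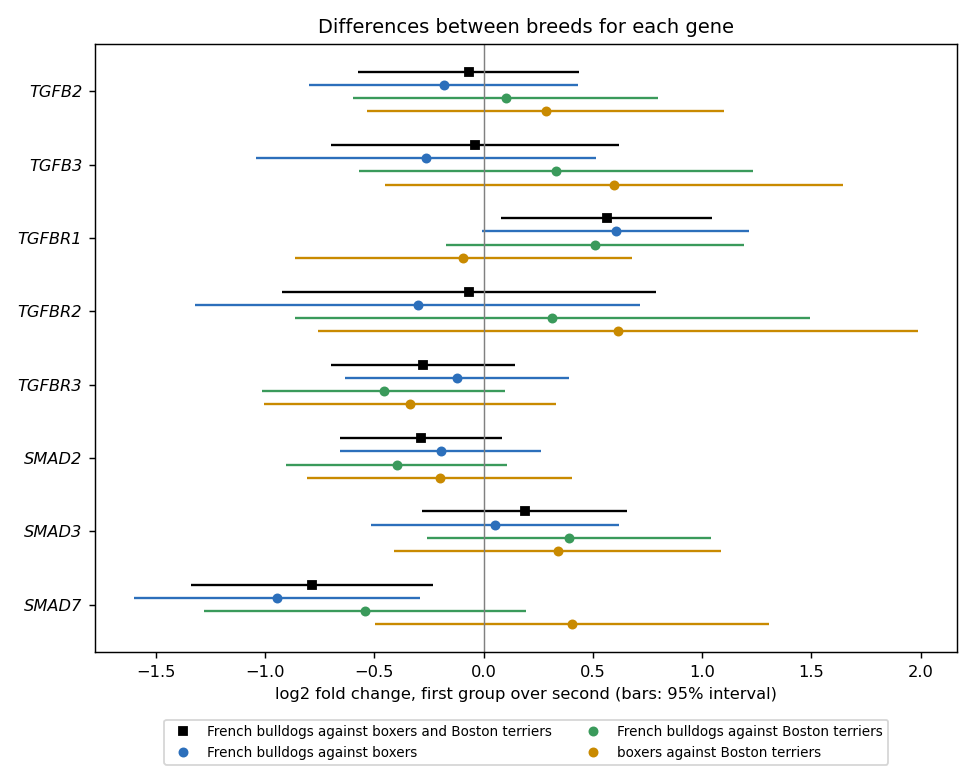
Log2 fold change (horizontal, first group over second) of the 8 genes in 4 comparisons, with bars for the 95% interval of the edgeR fit. For SMAD7 the intervals of French bulldogs against the joint comparison group (-1.34 to -0.23) and against boxers (-1.60 to -0.29) lie below 0, and for TGFBR1 the interval against the joint group (0.08 to 1.05) lies above 0. No value passed adjustment over all genes.

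Ratios of counts between partners of the pathway were compared between groups because a ratio within a library needs no normalization. The test was an exact permutation over all 31824 divisions of the 18 libraries into 11 and 7, two-sided and adjusted over 4 ratios. It takes French bulldogs 2 and 8 as separate dogs, so values with both summed are given as well. The size of a ratio depends on gene length and has no meaning alone, so only the difference between dogs is read. The ratios with TGFB1 that had been planned were replaced by TGFB2 over TGFB3.

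The log2 ratio of the inhibitor SMAD7 to its upstream partner SMAD3 averaged 0.46 ± 0.80 (SD) over the 11 French bulldogs and 1.36 ± 0.78 over the 7 comparison dogs. The difference of -0.91 had an exact permutation p of 0.0322 and an adjusted p of 0.126. French bulldogs ranged from -0.41 to 2.13 and the comparison dogs from 0.32 to 2.45, with 6 French bulldogs below every comparison dog and French bulldog 5, the dog with the lowest SMAD3, well above the rest of its breed. Without French bulldog 5 the difference was -1.07 with an adjusted exact permutation p of 0.0249, and it was the only dog whose removal took the ratio past the threshold. With French bulldogs 2 and 8 summed the difference was -0.86 (exact permutation p = 0.0486, adjusted p = 0.192), and 5 of 10 French bulldogs were below every comparison dog. Over all 21 alternatives the adjusted p of this ratio ran from 0.0249 to 0.423.

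The log2 ratio of the type II to the type I receptor, TGFBR2 over TGFBR1, averaged -1.35 ± 1.11 (SD) over the French bulldogs and -0.39 ± 0.72 over the comparison dogs. The difference of -0.95 had an exact permutation p of 0.0631 and an adjusted p of 0.126. The ratio was below -2 in French bulldogs 2, 4, 5, 8 and 10 and in no comparison dog, while the other 6 French bulldogs lay between -1.0 and 0.18, inside the comparison range of -1.68 to 0.58. With French bulldogs 2 and 8 summed, 4 of 10 were below -2 and the difference was -0.85 (exact permutation p = 0.0959, adjusted p = 0.192). SMAD3 over SMAD2 differed by 0.44 (-2.25 against -2.69, exact permutation p = 0.212, adjusted p = 0.283), and TGFB2 over TGFB3 by -0.02 (exact permutation p = 0.957).

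**Figure D3:**
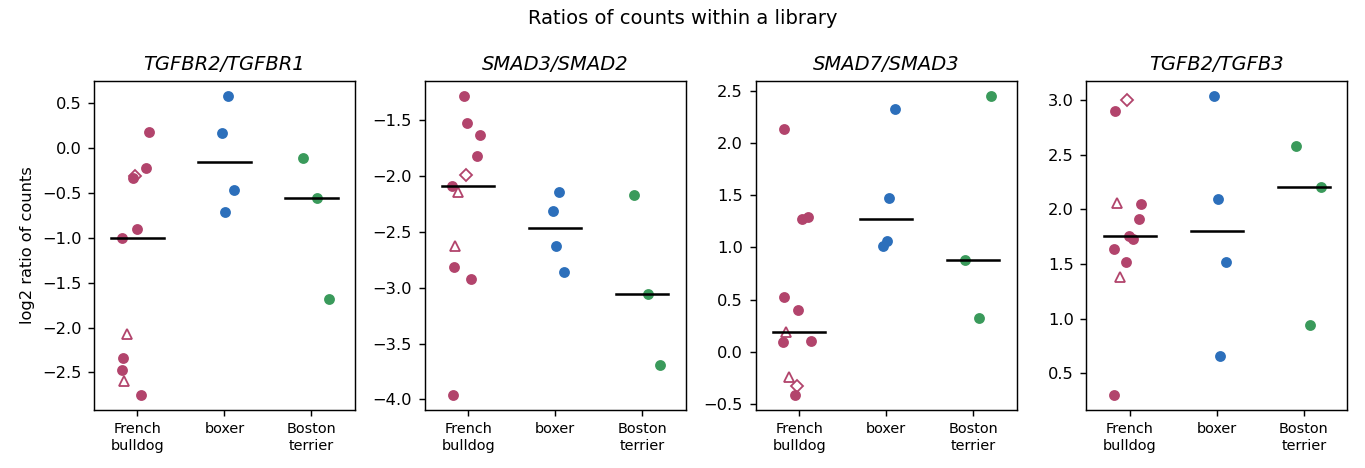
Log2 ratio of counts (vertical) of TGFBR2 to TGFBR1, SMAD3 to SMAD2, SMAD7 to SMAD3 and TGFB2 to TGFB3 in each library by breed, with a bar at the median. The open diamond is French bulldog 6 and open triangles are French bulldogs 2 and 8. In the first panel 5 of 11 French bulldogs lie below -2, and in the third panel 6 of 11 lie below all 7 comparison dogs.

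How the genes varied together was examined over 16 samples, with French bulldog 6 left out and French bulldogs 2 and 8 summed. Pearson's r and Spearman's rho of log2 CPM were tested by 100000 permutations, two-sided, with adjustment over the 28 pairs. No pair passed, although 3 pairs had an unadjusted p-value of r under 0.05, and 13 of 28 values of r were above 0. The highest r joined TGFBR2 and SMAD3, a receptor and its effector, with r = 0.62 and rho = 0.62 (permutation test, adjusted p = 0.304 and 0.318). It was 0.82 without the 2 samples farthest from the median of TGFBR2, 0.67 within the 9 French bulldog samples and 0.84 within the 7 comparison dogs. The lowest r joined TGFB3 and SMAD2 (r = -0.52, rho = -0.57, adjusted p = 0.443 and 0.318), followed by SMAD2 and SMAD3 (r = -0.50, rho = -0.46). The receptors TGFBR1 and TGFBR2, which act as a complex, had an r of -0.14, and SMAD7 had an r of 0.12 with TGFBR2 and -0.17 with SMAD3.

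Each gene was then set against the summed level of markers of 8 cell types and of a list of genes known to respond to TGF-beta, which gave 72 pairs. In 6 pairs both r and rho passed, all with a positive sign, and 4 of the 6 involved TGFBR2. Both values of a pair come from the same library and share its normalization, and a pair describes which markers were high where a gene was high.

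With French bulldog 6 left out, TGFBR2 rose and fell with vessel markers. With the summed endothelial markers PECAM1, CDH5, VWF, TEK and KDR its r was 0.91 and its rho 0.89 (permutation test, adjusted p = 0.00036 and 0.00072, the unadjusted p of r being 1e-05, the smallest that the permutations can give). This r was 0.86 without the 2 farthest samples, 0.95 within French bulldogs (n = 9), 0.46 within the comparison group (n = 7) and 0.75 with French bulldog 6 added. Leaving out each sample in turn moved it between 0.89 and 0.92. With the markers of mural cells and fibroblasts, the cells that wrap vessels and lay down collagen, r was 0.88 and rho 0.89 (adjusted p = 0.00036 and 0.00072), with 0.87 without the 2 farthest samples, 0.91 within French bulldogs, 0.59 within the comparison group and 0.90 with French bulldog 6.

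Among single markers, TGFBR2 had a rho of 0.93 with PDGFRB, the PDGF receptor of pericytes, and of 0.91 with VWF, the von Willebrand factor of endothelium. The 5 endothelial markers gave 0.56 to 0.91 and the 6 mural and fibroblast markers 0.60 to 0.93. Over all 16487 other genes tested the median rho with TGFBR2 was -0.04, the 95th percentile was 0.59, and 165 genes, or 1.00%, had a rho above 0.8. French bulldogs 2 and 8, with TGFBR2 at 19.2 and 16.4 CPM, had the lowest endothelial sums of the series (125.7 and 134.7 CPM), and French bulldog 3, with TGFBR2 at 93.3 CPM, had the highest (800.7 CPM). French bulldog 6 had the highest TGFBR2 and mural sum (834.2 CPM) but an endothelial sum of only 207.3 CPM.

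TGFBR2 also went with the list of TGF-beta target genes (r = 0.80, rho = 0.82, permutation test, adjusted p = 0.0036 and 0.00384). The r was 0.77 without the 2 farthest samples, 0.87 within French bulldogs and 0.50 within the comparison group. Fibronectin (FN1) made up 58.2% of that sum, and 12 of the 13 target genes had a positive rho with TGFBR2, with 0.70 for FN1, 0.66 for CCN2, 0.64 for TGFBI and, as the lowest positive value, 0.23 for ID3. The exception was SNAI1, with -0.09. Several of these targets are made by vessel and connective tissue cells, whose markers moved with TGFBR2 as well, and the share of each was not tested. With macrophage and microglia markers TGFBR2 gave r = 0.74 and rho = 0.71 (adjusted p = 0.0148 and 0.0391), which was 0.54 without the 2 farthest samples, 0.87 within French bulldogs and 0.40 within the comparison group. With the oligodendrocyte lineage its r was -0.66 (adjusted p = 0.0476) and its rho -0.65 (adjusted p = 0.0806), so only r passed.

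None of the other 7 genes passed with the target list, and whether their correlations differed from that of TGFBR2 was not tested. SMAD3 had an r of 0.60 with the targets and a rho of 0.53 (permutation test, unadjusted p of r = 0.0147, adjusted p = 0.122 and 0.207), with an r of 0.78 within French bulldogs and 0.24 within the comparison group. As for TGFBR2, 12 of the 13 target genes had a positive rho with SMAD3, with a median of 0.36 against 0.61 for TGFBR2. TGFB3 also had 12 of 13 above 0, with a median of 0.18 and an r of 0.13 with the sum. SMAD7, itself a gene that TGF-beta induces, had an r of -0.05.

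TGFB2 was highest where neuronal markers were highest. With the sum of RBFOX3, SYT1, SNAP25, GAD1 and NEFL its r was 0.74 and its rho 0.77 (permutation test, adjusted p = 0.0148 and 0.00972), with 0.68 without the 2 farthest samples, 0.80 within French bulldogs, 0.65 within the comparison group and 0.64 with French bulldog 6. All 5 markers had a positive rho with TGFB2, from 0.64 for RBFOX3 to 0.81 for SNAP25. Over all 16487 other genes tested the 95th percentile of rho with TGFB2 was 0.70, which SYT1, SNAP25 and NEFL exceeded and RBFOX3 and GAD1 (0.69) did not. The astrocyte markers SLC1A3, GJA1, AQP4 and GFAP had a rho of 0.69, 0.63, 0.43 and 0.17 with TGFB2. Their sum did not pass (r = 0.43, rho = 0.29, permutation test, adjusted p = 0.346 and 0.576). French bulldog 9, the dog with the highest TGFB2, also had the highest neuronal sum of the series (991.1 CPM). Its myelin and astrocyte sums were the highest as well (7480 and 4669 CPM).

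TGFBR1 went with the T cell markers (r = 0.80, rho = 0.74, permutation test, adjusted p = 0.00558 and 0.0233), with an r of 0.77 without the 2 farthest samples, 0.78 within French bulldogs and 0.71 within the comparison group. The T cell sum was sparse. It lay between 0.585 and 8.62 CPM outside French bulldog 6. CD2 made up 85.3% of the summed CPM over the 16 samples and was the only one of its genes to pass the filter. The others, CD3D, CD8A, CD3G and CD3E, were at 0 in 15, 11, 7 and 4 of 18 libraries.

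**Figure D4:**
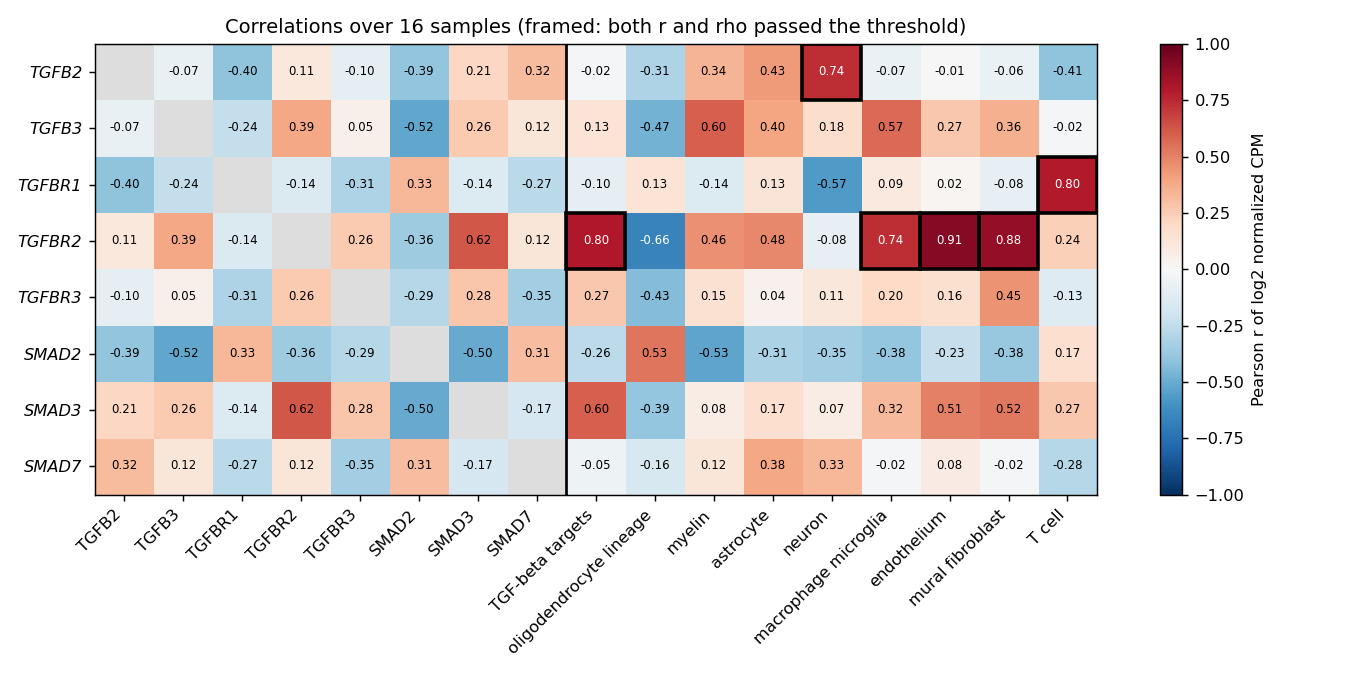
Pearson r of log2 CPM over 16 samples between the 8 genes (left of the line, 28 pairs, each drawn on both sides of the diagonal) and between each gene and the summed level of target genes or cell type markers (right of the line, 72 pairs). Frames mark the 6 pairs in which both r and rho passed at an adjusted p under 0.05, and 4 of the 6 are in the TGFBR2 line.

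**Figure D5:**
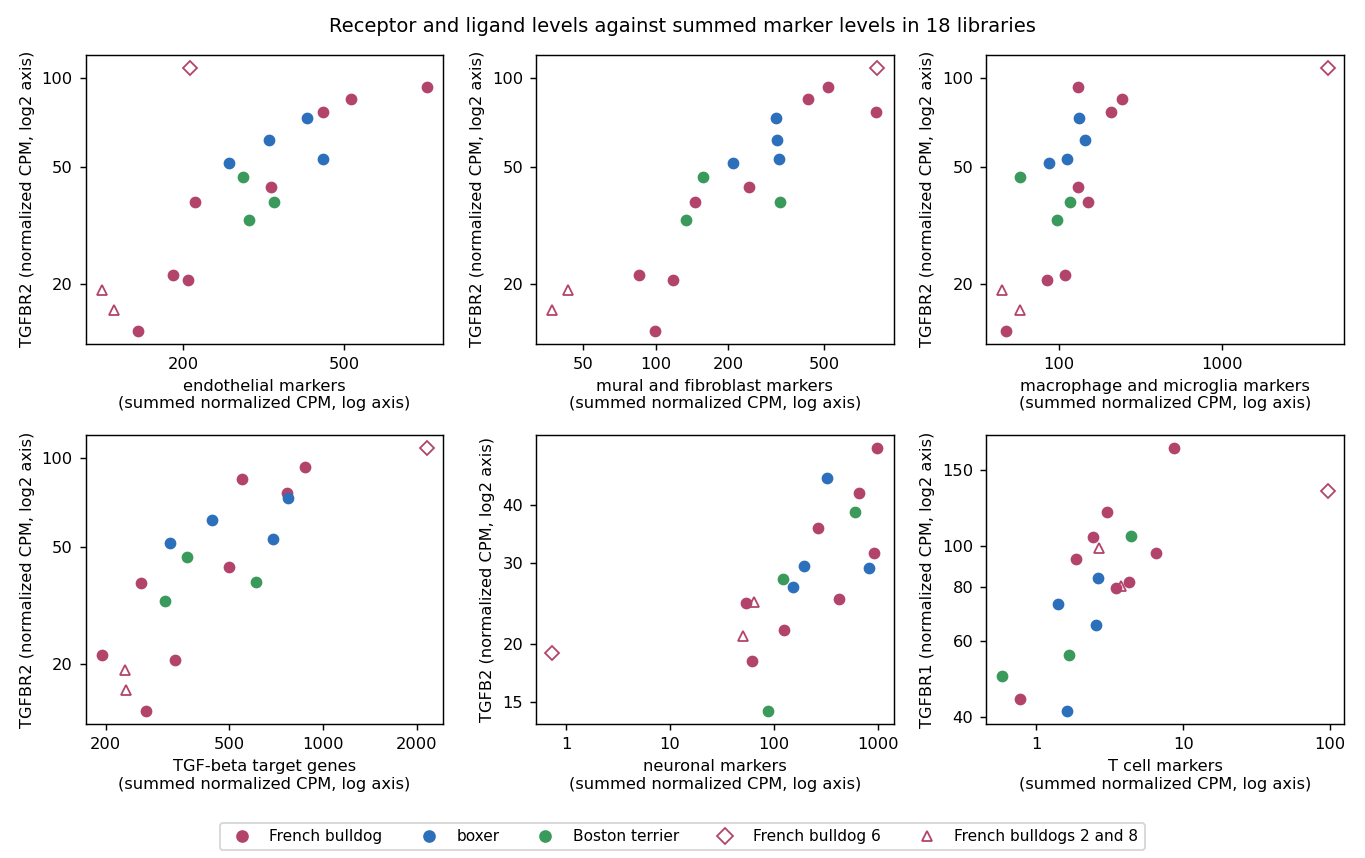
Normalized CPM of TGFBR2, TGFB2 or TGFBR1 (vertical, log2 axis) against the summed normalized CPM of marker or target genes (horizontal, log axis) for the 6 framed pairs, with 1 point per library and all 18 libraries drawn. TGFBR2 climbs with the endothelial sum from French bulldogs 2 and 8 (open triangles) to French bulldog 3, and French bulldog 6 (open diamond) lies off that trend.

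For each gene the most similar genes were read from the same 16 samples by Spearman's rho over 16487 genes, as a description with no test. TGFBR2 was most like CYYR1 and ADGRF5 (rho = 0.95 for both), of which ADGRF5 is an adhesion receptor of endothelium. TGFB2 was closest to a gene without a symbol, ENSCAFG00000055346 (0.95), and to the serotonin receptor gene HTR5A (0.91). TGFBR1 was closest to the histone gene H3-3A (0.91) and to SYNCRIP, an RNA-binding protein (0.88). SMAD7 was closest to the amino acid transporter SLC38A7 (0.93) and BSDC1 (0.84), and SMAD3 to the protease BACE2 (0.91) and ENSCAFG00000007127 (0.87). TGFBR3 was closest to CARS2 (0.93) and KPNA3 (0.92), SMAD2 to HDX (0.89) and RAB3GAP2 (0.87), and TGFB3 to NECAB3 (0.83) and SEC14L5 (0.80). A rho above 0.8 was reached by 274 genes for TGFB2 and by 2 genes for TGFB3.

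Around these 8 genes, 71 further genes of the pathway were listed by role, of which 65 had a row and 58 were tested. None of the 58 passed in French bulldogs against the comparison group by edgeR. Their mean was higher in French bulldogs for 28 and lower for 30, their median log2 fold change was 0.00, and 5 of them (8.62%) had an unadjusted p-value under 0.05, against 10.6% of all genes. Without French bulldog 6 none of the 58 passed (smallest adjusted p = 0.368) and 8 had an unadjusted p-value under 0.05. The share of all genes in that fit is not given here, so the 8 are not read as a result about the pathway. INHBA was no longer among them, and BMP2, BMPR1A, FBN1 and PPM1A were new (edgeR, p = 0.0158, 0.0162, 0.0413 and 0.0337).

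Among the 8 other ligands tested, 2 had higher and 6 lower means in French bulldogs. INHBA, the activin A subunit, had a log2 fold change of -1.02 with a standard error of 0.47 (6.77 against 13.7 CPM, edgeR, p = 0.0427, adjusted p = 0.462), and BMP4, a bone morphogenetic protein, had -1.04 (14.2 against 29.2 CPM, adjusted p = 0.490). INHA, the inhibin subunit, had -1.10 at 1.03 against 2.22 CPM (p = 0.0476, adjusted p = 0.469). Without French bulldog 6 the INHBA value was -0.93 and the INHA value -0.94 (edgeR, p = 0.0689 and 0.0398). INHA, like ITGAV below, is named because its unadjusted p-value was under 0.05 and was chosen after its values were seen.

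Of the 9 genes for latency and activation tested, 3 had higher and 6 lower means. ITGAV, the integrin alpha-v chain that frees latent TGF-beta, had 0.71 (263.7 against 161.1 CPM, edgeR, p = 0.0234, adjusted p = 0.433), and its partner ITGB8 had 0.24 (379.6 against 321.4 CPM, adjusted p = 0.889). LTBP1, which binds the latent complex to the matrix, had -0.38 (adjusted p = 0.736), and the activator THBS1 had -0.16 (adjusted p = 0.942).

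Of the 11 other receptors, 7 had higher and 4 lower means, and 0 had an unadjusted p-value under 0.05. The endothelial receptors ENG and ACVRL1 had log2 fold changes of -0.25 and -0.27 (edgeR, adjusted p = 0.849 and 0.742), and the BMP type II receptor BMPR2 had 0.19 (adjusted p = 0.768). Among the 5 other SMADs, the common partner SMAD4 had 0.29 with a standard error of 0.13 (83.6 against 68.3 CPM, p = 0.0332, adjusted p = 0.446), and the inhibitor SMAD6, at 2.18 against 2.46 CPM, had -0.17 (adjusted p = 0.870).

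Of the 12 regulators tested, 8 had higher and 4 lower means. SKIL, a repressor of SMAD-driven transcription that the pathway also induces, had the smallest p-value of the 58, with a log2 fold change of 0.71 and a standard error of 0.24 (89.7 against 54.7 CPM, edgeR, p = 0.00829, adjusted p = 0.433). Its relative SKI was at 37.9 against 38.0 CPM. PMEPA1, another induced inhibitor, had -0.28 (adjusted p = 0.710), and the decoy receptor BAMBI had 0.31 (adjusted p = 0.781). Of the 13 target genes tested, 5 had higher and 8 lower means and 0 had an unadjusted p-value under 0.05. French bulldog 6 stood apart here as well, with a summed target level of 2159 CPM against 194.4 to 876.1 in the other 17 libraries. Without it 4 targets had higher and 9 lower means, the median log2 fold change was -0.21 in place of -0.08, and the median sum was 301.3 CPM over the 10 French bulldogs, against 439.9 over the 7 comparison dogs. CCN2, the connective tissue growth factor, had -0.08 (edgeR, adjusted p = 0.973), and TGFBI, a matrix protein named for its induction, had 0.38 (adjusted p = 0.895) and 0.35 without French bulldog 6. SMURF2 and ID1, also on the list to be named, had no row by their symbols and were not analysed here.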

How the data were processed

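RNA was extracted from paraffin scrolls of 18 canine HGO samples, depleted of ribosomal RNA and sequenced as paired-end libraries with a stranded kit. The authors trimmed the reads (Trimmomatic 0.33), checked them with FastQC, aligned them to the dog genome canFam6 (HISAT2 2.1.0) and assigned them to genes with featureCounts. The deposited values are the raw read counts of the authors, not normalized, for 29993 genes, of which 16324 had a symbol. How strand and reads with several matches were handled is not given in the sources used here, so reads from overlapping or antisense genes could not be told apart. No gene lengths or sequences were used here.

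Groups were taken from the sample labels. Breed groups were compared with the quasi-likelihood F test of edgeR 4.0.16 in R 4.3.3, after TMM scaling and filterByExpr, with robust dispersions and no covariate, two-sided, with Benjamini-Hochberg adjustment over all genes tested and a threshold of 0.05. A second fit over 3 breeds used the same settings. DESeq2 1.42.0, limma-voom (limma 3.58.1), other normalizations and filters, library series and left-out dogs were alternatives. Marker and pathway values without French bulldog 6, and counts of dogs beyond the comparison group with French bulldogs 2 and 8 summed, were added after seeing the data. The tests set a difference against the spread between these libraries, with French bulldogs 2 and 8 taken as separate dogs unless stated. Intervals cover 95%, and the floor of 3 counts covers counting error only.

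Correlations used log2 CPM and sums of normalized CPM over listed genes, and Python 3.11.15 with numpy 2.4.6 and pandas 2.3.3. Genes named were the 9 genes of the set, 19 pathway genes chosen for their role, and for each gene of the set the 2 others with the highest rho. The values of 1 of these pathway genes are not reported here. Genes with an unadjusted p under 0.05 among the pathway lists were added after their values were seen. The genes of the set and all lists were chosen with earlier results of these data known. With TGFB1 absent, 2 of 5 planned ratios and 8 of 36 planned pairs were not computed, and TGFB2 over TGFB3 was added. Tested on simulated data, this test recovered 52 of 199 genes set to differ 2-fold (26.1%), 144 of 195 at 4-fold (73.8%) and 179 of 196 at 8-fold (91.3%).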

Additional observations from a re-analysis of the deposited data

Results flagged for a closer look

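Each of the 8 genes and 4 ratios was searched for a single dog far from the rest, within the 4 boxers and within the 7 comparison dogs, which made 24 sets, of which chance alone would mark about 1 in 20. The 11 French bulldogs and 3 Boston terriers were too many and too few for this search. In 2 of the 24 sets a dog was marked. TGFB2 was at 45.7 CPM in boxer 3, and the other 3 boxers were at 26.6 to 29.5 CPM. TGFB3 was at 18.5 CPM in boxer 4, and the other 6 comparison dogs were at 5.57 to 9.29 CPM. The counts behind these values were 500 and 194.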

How the results depend on the processing

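None of the 8 genes passed the threshold in French bulldogs against the comparison group under any of 30 alternatives, where the smallest adjusted p was 0.217 (SMAD7, DESeq2), nor under any of 22 alternatives in each pair of breeds. SMAD7, TGFBR1, TGFBR3, SMAD2 and SMAD3 kept their direction in all 30. The number of all genes called was 58 with DESeq2, 2 with limma-voom, 2 with upper quartile scaling, and 0 with at least 10 counts in every library, with French bulldogs 2 and 8 summed (also with French bulldog 6 left out), or with either library series alone. With single dogs removed it lay between 0 and 7, with 7 without French bulldog 9 and 3 without French bulldog 6. The cause was not tested.

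Genes with a difference near 0 reversed. TGFBR2 was 0.021 with French bulldogs 2 and 8 summed and 0.12 against library numbers 1 to 3, and -0.38 with limma-voom. TGFB2 was 0.14 and TGFB3 0.13 against library numbers 1 to 3, and 0.017 and 0.096 with French bulldogs 2 and 8 summed and 6 left out. Leaving out each dog moved TGFB2 from -0.20 to 0.060, TGFB3 from -0.16 to 0.30 and TGFBR2 from -0.22 to 0.043. Between boxers and Boston terriers it moved TGFBR1 from -0.29 to 0.32, SMAD2 from -0.42 to 0.055 and TGFB2 from -0.018 to 0.63. Between French bulldogs and boxers it moved SMAD3 from -0.074 to 0.20, TGFBR3 from -0.25 to 0.0098, TGFB2 from -0.31 to 0.022 and TGFB3 from -0.46 to 0.24. Between French bulldogs and Boston terriers it moved TGFB2 from -0.20 to 0.45 and SMAD7 from -0.89 to 0.082. The TGFB2 over TGFB3 ratio was 0.16 against library numbers 1 to 3 and -0.22 to 0.18 with each dog left out. Ratios called ran from 0 to 1. Within French bulldogs 1 of 72 pairs with lists passed instead of 6, over 9 samples instead of 16.

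The label numbers 1 to 7 occur in both groups but do not pair the dogs, since same-numbered dogs correlated at -0.50 to 0.21, 3 of 7 above 0.1, and 0 of 7 correlated best with their own number. With the replicate block 0 genes were called, TGFBR1 was 0.69 and TGFBR2 -0.23, and without the block on the same 14 libraries 5 were called, TGFBR1 was 0.68 and TGFBR2 0.11. Counts per gene and library were 23 to 2273 for the 8 genes, and the effect of depth on their tests was not tested. In the simulation over all genes the test missed most 2-fold changes.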
